A study of Mus musculus with 10 samples.

Results

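The aryl hydrocarbon receptor and the genes it acts on were followed in mouse embryonic fibroblasts through 8 genes, chosen by name. They were the receptor Ahr, its partner Arnt, the repressor Ahrr, the feedback gene Tiparp, and the target enzymes Cyp1a1, Cyp1b1, Aldh3a1 and Aox1. Every probe set annotated to one of these symbols alone was taken, which gave 17 of the 45101 probe sets on the array and 8 of 18193 measured genes. The cells carried a conditional Dicer knockout gene (CDKO) or were named wild type (WT) in the sample titles, and Dicer is the enzyme that cuts microRNA precursors. The 5 groups, with 2 arrays each, were CDKO cells left untreated, CDKO cells given 1 µM or 5 µM 4-hydroxytamoxifen (OHT) for 4 days, WT cells given 5 µM OHT for 4 days, and WT cells left untreated. All grew in DMEM with 10% serum. The labels name no Cre recombinase, no clone and no mouse strain, and the description field calls every sample a conditional knockout, so the titles were followed. No label says that the replicates were grown as separate cultures, so the p values may reflect technical spread alone.

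The receptor is a bHLH-PAS transcription factor that waits in the cytoplasm with chaperones until a small molecule binds it. It then enters the nucleus, pairs with Arnt and binds DNA at the core GCGTG, the xenobiotic response element. Dioxin, plant indoles and breakdown products of tryptophan are ligands, and Cyp1a1 is the classic target. Ahrr competes with the receptor for Arnt, and Tiparp, a mono-ADP-ribosyltransferase, is induced by the receptor and then dampens it. OHT is best known as an estrogen receptor ligand used to switch on Cre fusion proteins, and it has also been reported to act on the aryl hydrocarbon receptor.

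The stretch of 250 bases before the transcription start is shown for 4 members whose levels contrast below, namely Cyp1a1 and Ahrr, which were not detected, and Cyp1b1 and Tiparp, which were. The sequences come from RefSeq on build GRCm38.p6, are written 5′ to 3′ on the strand of the gene, and show each GCGTG, or CACGC where the core lies on the other strand, in capitals. The windows are chr9:57697363-57697612 on the plus strand for Cyp1a1, chr13:74292332-74292581 on the minus strand for Ahrr, chr17:79715062-79715311 on the minus strand for Cyp1b1, and chr3:65528197-65528446 on the plus strand for Tiparp.
Cyp1a1: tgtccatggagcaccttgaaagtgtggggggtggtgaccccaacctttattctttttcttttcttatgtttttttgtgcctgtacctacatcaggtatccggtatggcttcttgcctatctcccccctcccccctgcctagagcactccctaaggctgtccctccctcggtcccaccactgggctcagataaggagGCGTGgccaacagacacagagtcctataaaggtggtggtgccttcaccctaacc
Ahrr: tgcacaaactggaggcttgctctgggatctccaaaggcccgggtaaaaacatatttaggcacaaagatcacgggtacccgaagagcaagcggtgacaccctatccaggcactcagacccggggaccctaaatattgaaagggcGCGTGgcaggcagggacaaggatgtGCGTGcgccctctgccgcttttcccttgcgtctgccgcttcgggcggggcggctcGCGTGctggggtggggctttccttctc
Cyp1b1: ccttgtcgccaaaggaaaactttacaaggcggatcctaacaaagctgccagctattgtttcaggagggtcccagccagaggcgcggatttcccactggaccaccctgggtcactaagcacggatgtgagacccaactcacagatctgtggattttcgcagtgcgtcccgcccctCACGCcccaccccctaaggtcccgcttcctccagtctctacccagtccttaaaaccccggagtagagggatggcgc
Tiparp: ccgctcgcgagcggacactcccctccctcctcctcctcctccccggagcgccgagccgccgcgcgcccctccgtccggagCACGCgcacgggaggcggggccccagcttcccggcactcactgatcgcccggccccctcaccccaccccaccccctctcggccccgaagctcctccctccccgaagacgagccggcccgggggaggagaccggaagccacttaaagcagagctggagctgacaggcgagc

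Promoters of 6 of the 8 members were found in the RefSeq table, and the 2 others, Ahr and Aldh3a1, are only named. Each of the 6 held the core at least once on either strand. Ahrr held it 3 times and Arnt, Cyp1a1, Cyp1b1, Tiparp and Aox1 held it 1 time each, as the sequences above show for 4 of them. Of 32851 promoters of the same length 28.2% held GCGTG. The longer form TNGCGTG, which contains the core, was in Ahrr alone among the 6 and in 4.10% of all promoters. A match of letters is a description and not a bound site, and undetected and expressed members alike held the core in this window. Only these 250 bases were searched, so cores farther from the start were not counted.

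Values were log2 units of the GCRMA summary, in which arrays had medians of 3.03 to 3.16. A probe set was tested where its highest group mean reached 4. The arrays differed in ways that touch the results below. The 18S ribosomal RNA control stood at 10.2 in CDKO 1 µM replicate 2 and at 5.21 to 8.44 in the other CDKO and the treated WT arrays, against 11.6 and 11.2 in untreated WT. The 3′ minus 5′ signal of Gapdh, a sign of RNA quality, moved with it and was 1.58 in CDKO 1 µM replicate 2 and -0.31 to 0.07 in the other CDKO and the treated WT arrays, against 0.89 and 0.67 in untreated WT. The hybridisation spike-in controls were low in 4 arrays (the lower class), which were both CDKO arrays at 1 µM and replicate 2 of the untreated and the 5 µM CDKO groups. Replicates lay farther apart in CDKO cells (median SD of 0.31 untreated, 0.34 at 1 µM and 0.29 at 5 µM) than in WT cells (0.07 at 5 µM and 0.10 untreated), and 1 spread pooled over all groups was used. Of 11 fibroblast markers 10 or 11 reached 4 in every array. So did 11 or 12 of 13 macrophage and leukocyte markers, with array medians of 7.07 and 8.08 in untreated CDKO, 6.18 and 6.73 at 1 µM, 6.89 and 8.58 at 5 µM, 8.99 and 9.01 in treated WT, and 8.50 and 8.64 in untreated WT. Epithelial and skeletal muscle markers had medians of at most 4.03 in the CDKO and treated WT arrays, against 6.68 to 7.20 in untreated WT. Of 5 epithelial markers 4 reached 4 in both untreated WT arrays, against 2 or 3 elsewhere, and of 7 muscle markers 6 did, against 2. Not every marker followed its median. Krt19 had means of 7.48 in treated and 7.13 in untreated WT, and Des read 9.73 in CDKO 1 µM replicate 2, against 9.12 and 8.80 in untreated WT. In such bulk RNA, fewer cells of a type and less RNA per cell cannot be told apart. The Dicer1 probe set 1427941_at read 7.09 and 5.99 in untreated CDKO, 5.40 and 8.30 at 1 µM, 5.83 and 5.78 at 5 µM, 7.64 and 7.19 in treated WT, and 8.97 and 9.10 in untreated WT. The other, 1460571_at, read 6.33 and 5.93 in untreated CDKO, 6.10 and 6.55 at 1 µM, 5.90 and 5.49 at 5 µM, 5.90 and 5.94 in treated WT, and 7.31 and 7.16 in untreated WT, so treated WT was in the range of the CDKO arrays on it and above all but 1 of them on the first. The position of the probes relative to the deleted part was not known, so they do not check the labels.

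Of the 8 genes, 5 had at least 1 probe set above the minimum (Ahr, Arnt, Cyp1b1, Tiparp and Aox1) and 3 had none (Cyp1a1, Ahrr and Aldh3a1). Of the 17 probe sets, 10 were tested and 7 lay below. The receptor, its partner and Cyp1b1 were thus each measured well above the minimum in every group by at least 1 probe set, while Cyp1a1 was near the bottom of the scale with and without OHT.

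**Figure D1:**
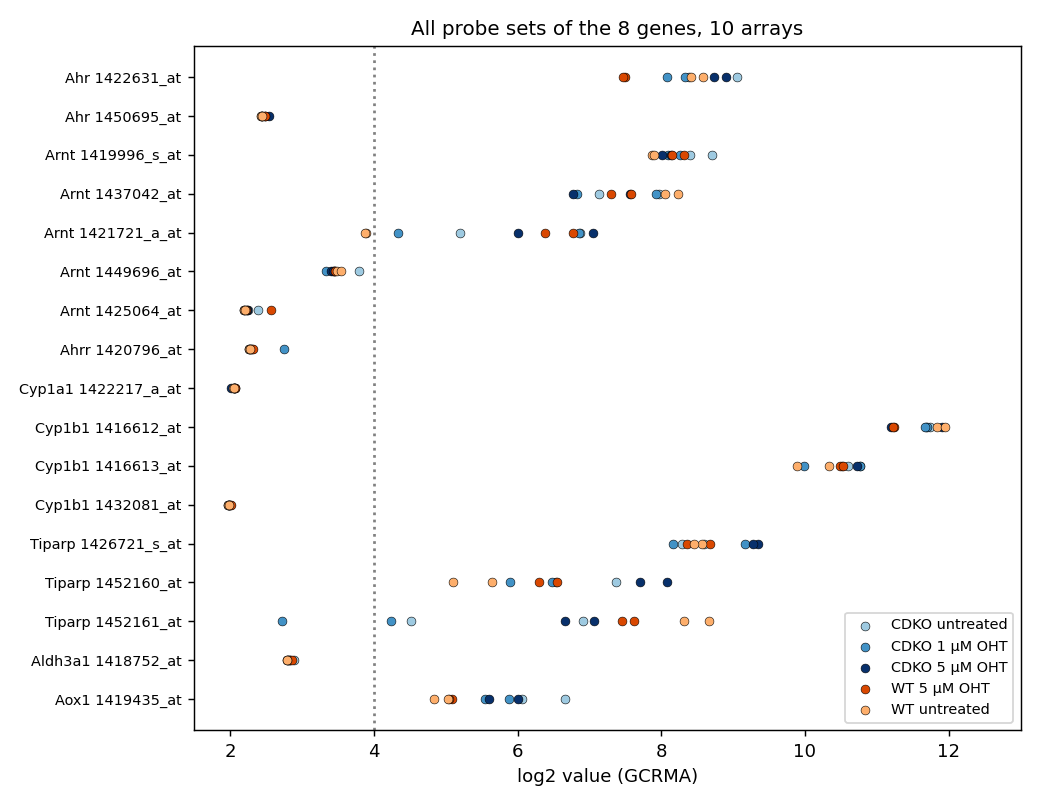
Log2 values of the 17 probe sets of the 8 genes in each of 10 arrays, with 1 point per array coloured by group, and the dotted line at the minimum of 4. The probe sets of Cyp1a1, Ahrr and Aldh3a1 lie left of the line in all arrays, as does 1 or more probe set of Ahr, Arnt and Cyp1b1.

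Cyp1a1, the cytochrome P450 that oxidises polycyclic hydrocarbons, read 2.06 ± 0.01 in untreated CDKO, 2.05 ± 0.00 at 1 µM, 2.04 ± 0.03 at 5 µM and 2.07 ± 0.00 in treated WT, against 2.05 ± 0.01 in untreated WT cells (SD, n = 2 arrays each). Over all 10 arrays its values ran from 2.02 to 2.07, so no array stood apart. Aldh3a1, an aldehyde dehydrogenase of the receptor's gene battery, ran from 2.79 to 2.89. Ahrr, which blocks the receptor by taking up Arnt, ran from 2.26 to 2.76, with the highest value in CDKO 1 µM replicate 2 and 2.28 ± 0.02 in CDKO at 5 µM, against 2.28 ± 0.02 in untreated CDKO. These 3 genes were at background in every group by this measure, which shows that no signal was detected by these probes and not that no transcript was present. With the minimum removed, the 7 dim probe sets gave 0 calls in 56 tests with limma, a largest change of 0.31 in size and a smallest adjusted p of 0.395. In these fits 0% to 2.92% of all 45037 probe sets passed, depending on the comparison. Values so near background could hardly give a call, so the count says little about these genes.

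Ahr, the receptor, read 9.06 and 8.38 in untreated CDKO cells, 8.33 and 8.08 at 1 µM, 8.74 and 8.89 at 5 µM, 7.50 and 7.47 in treated WT, and 8.41 and 8.58 in untreated WT cells on the probe set 1422631_at. Both treated WT arrays lay below all 8 others. CDKO cells at 1 µM came next, and above them CDKO at 5 µM, untreated CDKO and untreated WT, each of which overlapped its neighbour in the order of the means. The other probe set of Ahr, 1450695_at, was at background at 2.43 to 2.54.

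In WT cells Ahr was lower on OHT by a log2 difference of -1.01 ± 0.26 (SE), a ratio of 0.497, and missed the threshold (adjusted p = 0.0535, limma). CDKO cells at 5 µM differed from WT cells at 5 µM by 1.33 ± 0.26 (2.52-fold, adjusted p = 0.0562). Within CDKO cells the change at 5 µM was 0.10 ± 0.26 (95% interval -0.51 to 0.70, adjusted p = 0.983) and turned to -0.24 without CDKO untreated replicate 2. At 1 µM it was -0.52 ± 0.26 (adjusted p = 0.887). The 2 responses to 5 µM, CDKO minus WT, differed by 1.10 ± 0.37 (adjusted p = 0.300), so a difference between the lines in the response of Ahr was not established.

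The WT difference of Ahr had the lowest adjusted p of the member results that did not pass, and which arrays entered the fit decided its side of the threshold. Its adjusted p was 0.0295 without either untreated CDKO array, 0.0367 without either CDKO 1 µM array, 0.000139 with array weights, 0.0422 blocked by spike-in class and 0.00363 with the 4 WT arrays alone, where the closer WT replicates set the spread. It was 0.198 to 0.265 without any single WT array, 0.0709 after quantile normalization and 0.266 with the 18S level as a covariate, where the difference was -1.47. Untreated WT, with its raised 18S control, Gapdh difference and epithelial and muscle markers, is the group set against treated WT here, and the part of the Gapdh difference and the markers in the result was not tested. Against WT at 5 µM, the difference of CDKO cells passed without either untreated CDKO array (adjusted p = 0.0334), with array weights (0.0361) and in a fit blocked by spike-in class (0.0411), and the range over all alternatives was 0.0334 to 0.359.

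Arnt, the partner that the receptor shares with the hypoxia factors, was read by 3 tested probe sets that did not move together. On 1419996_s_at it read 8.70 and 8.40 in untreated CDKO, 8.26 and 8.10 at 1 µM, 8.14 and 8.02 at 5 µM, 8.32 and 8.15 in treated WT, and 7.87 and 7.91 in untreated WT. Untreated CDKO stood above and untreated WT below the other arrays, and the 3 groups between lay at 8.02 to 8.32. Untreated CDKO exceeded untreated WT by 0.66 ± 0.20 (adjusted p = 0.0955), the change at 5 µM in CDKO cells was -0.47 ± 0.20 (adjusted p = 0.548), and that in WT cells was 0.34 ± 0.20 (adjusted p = 0.282). The 2 responses differed by -0.82 ± 0.28 (adjusted p = 0.314).

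The second Arnt probe set, 1421721_a_at, read 5.21 and 6.87 in untreated CDKO, 6.86 and 4.34 at 1 µM, 6.00 and 7.06 at 5 µM, 6.38 and 6.77 in treated WT, and 3.89 and 3.88 in untreated WT. The 3 lowest values were those of the 3 arrays with the high 18S control. The probe set 1437042_at ran the other way, with 7.97 and 7.13 in untreated CDKO, 6.83 and 7.93 at 1 µM, 7.57 and 6.77 at 5 µM, 7.58 and 7.30 in treated WT, and 8.24 and 8.05 in untreated WT. In every CDKO group the replicate that was higher on the 1 probe set was lower on the other. For WT cells at 5 µM against untreated, 1421721_a_at gave 2.69 ± 0.85 (adjusted p = 0.0855) and 1437042_at gave -0.71 ± 0.46 (adjusted p = 0.335), so the direction of Arnt depends on the probe set. With the 18S level as a covariate the difference on 1437042_at was 0.07. For untreated CDKO against untreated WT, 1421721_a_at gave 2.15 ± 0.85 (adjusted p = 0.173) and 1437042_at gave -0.60 ± 0.46 (adjusted p = 0.467). Untreated WT was below the minimum on 1421721_a_at, so both of its differences are measured against background. For CDKO cells at 5 µM against untreated the changes on 1421721_a_at and 1437042_at were 0.49 ± 0.85 and -0.38 ± 0.46 (adjusted p = 0.968 and 0.937), and each turned its sign without untreated replicate 1, at -0.34 and 0.037. The remaining Arnt probe sets, 1449696_at and 1425064_at, lay at 3.34 to 3.79 and 2.19 to 2.57.

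**Figure D2:**
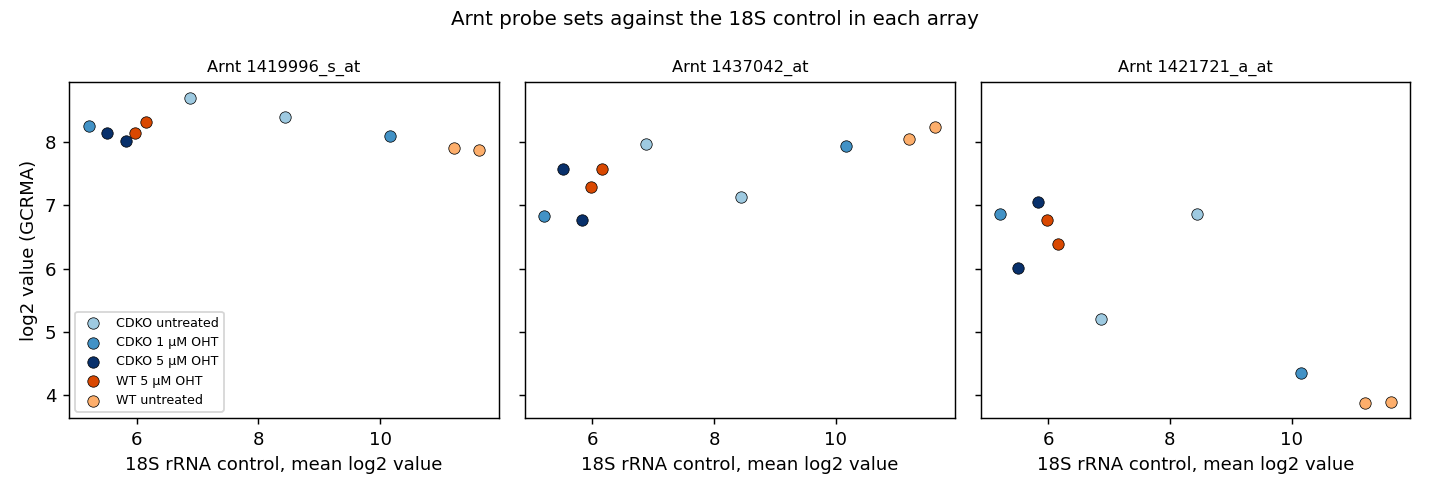
Log2 values of the 3 tested Arnt probe sets (vertical axes) against the mean log2 value of the 18S ribosomal RNA control probe sets (horizontal axes), with 1 point per array. The 3 arrays with 18S above 10 hold 3.88 to 4.34 on 1421721_a_at, where the other 7 hold 5.21 to 7.06.

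Tiparp, the feedback gene, had 3 tested probe sets, all annotated to the same transcript accession. On 1426721_s_at it read 8.59 and 8.29 in untreated CDKO, 8.16 and 9.16 at 1 µM, 9.35 and 9.27 at 5 µM, 8.68 and 8.36 in treated WT, and 8.57 and 8.46 in untreated WT. Both CDKO arrays at 5 µM lay above all 8 others, with 9.16 in CDKO 1 µM replicate 2 next. On 1452160_at the values were 7.37 and 6.53, 6.48 and 5.90, and 8.08 and 7.71 in CDKO cells at the 3 doses in rising order, 6.56 and 6.31 in treated WT, and 5.10 and 5.64 in untreated WT. Here too both CDKO arrays at 5 µM were above all others, and both untreated WT arrays were below them.

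The third probe set of Tiparp, 1452161_at, read 6.91 and 4.52 in untreated CDKO, 2.72 and 4.23 at 1 µM, 7.07 and 6.67 at 5 µM, 7.62 and 7.46 in treated WT, and 8.31 and 8.67 in untreated WT. It placed WT cells highest, where 1452160_at placed untreated WT lowest. Of its values below 5, all 3 were in arrays of the lower spike-in class, and the fourth array of that class held 6.67.

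For CDKO cells at 5 µM against untreated, the Tiparp differences were 0.87 ± 0.33, 0.95 ± 0.36 and 1.15 ± 0.77 on 1426721_s_at, 1452160_at and 1452161_at, ratios of 1.83, 1.93 and 2.23 (adjusted p = 0.483, 0.485 and 0.792). None passed, and the 95% intervals ran from 0.09 to 1.65, 0.10 to 1.79 and -0.65 to 2.96. Between the 2 arrays of the higher and the 2 of the lower class, the differences were 0.76 and 0.99 on 1426721_s_at and 0.71 and 1.18 on 1452160_at. On 1452161_at they were 0.16 and 2.15, and the difference was -0.04 without CDKO untreated replicate 2.

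Between the doses, CDKO cells at 5 µM against 1 µM, Tiparp differed by 0.65 ± 0.33, 1.71 ± 0.36 and 3.39 ± 0.77 on the same probe sets (adjusted p = 0.433, 0.157 and 0.171). The groups did not overlap on any of the 3, though 9.16 at 1 µM and 9.27 at 5 µM lay close on 1426721_s_at. With 2 arrays a group such separation carries little weight. Its share over all probe sets was not counted, and the 3 probe sets report 1 gene. The 1 µM mean on 1452161_at, 3.48, was below the minimum, so that difference is measured against background. Only 1452160_at passed in any fit, the one without CDKO 1 µM replicate 1, in which 9.19% of all probe sets passed. At 5 µM, CDKO exceeded WT cells by 0.79 ± 0.33 on 1426721_s_at (adjusted p = 0.311) and by 1.47 ± 0.36 on 1452160_at (adjusted p = 0.105), while 1452161_at gave -0.67 ± 0.77 (adjusted p = 0.770), with both CDKO arrays below both WT arrays. The response to 5 µM in CDKO minus that in WT was 0.87 ± 0.47, -0.11 ± 0.51 and 2.10 ± 1.09 in the same order of probe sets (adjusted p = 0.496, 0.949 and 0.477).

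Untreated CDKO exceeded untreated WT on 1452160_at by 1.58 ± 0.36, a 2.99-fold difference that passed (adjusted p = 0.0464), and by 2.00 within the higher spike-in class. On 1452161_at the same comparison gave -2.78 ± 0.77 (adjusted p = 0.0802), and passed as lower in 3 of 10 fits without 1 array and with array weights, and 1426721_s_at gave -0.07 ± 0.33 (adjusted p = 0.924), so the probe sets of Tiparp oppose each other between the lines. The higher value in CDKO cells therefore holds for 1 probe set and not for the gene as a whole. With the 18S level as a covariate the difference on 1452160_at was 0.97 (adjusted p = 0.431). Leaving out 1 array at a time, the call was kept in 2 of 10 fits, those without a CDKO 1 µM array, and its adjusted p over all alternatives ran from 0.0236 to 0.431. In WT cells on OHT against untreated, 1426721_s_at, 1452160_at and 1452161_at differed by 0.0049 ± 0.33, 1.06 ± 0.36 and -0.95 ± 0.77 (adjusted p = 0.994, 0.101 and 0.446). Treated CDKO cells against the 3 control groups gave 0.49 ± 0.21, 0.79 ± 0.23 and -2.08 ± 0.50 (adjusted p = 0.270, 0.119 and 0.0688). In neither comparison did the 3 probe sets give 1 direction. Untreated WT differed from the other groups in the 18S control, the Gapdh difference and the epithelial and muscle markers, and the part of the last 2 in these results was not tested.

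**Figure D3:**
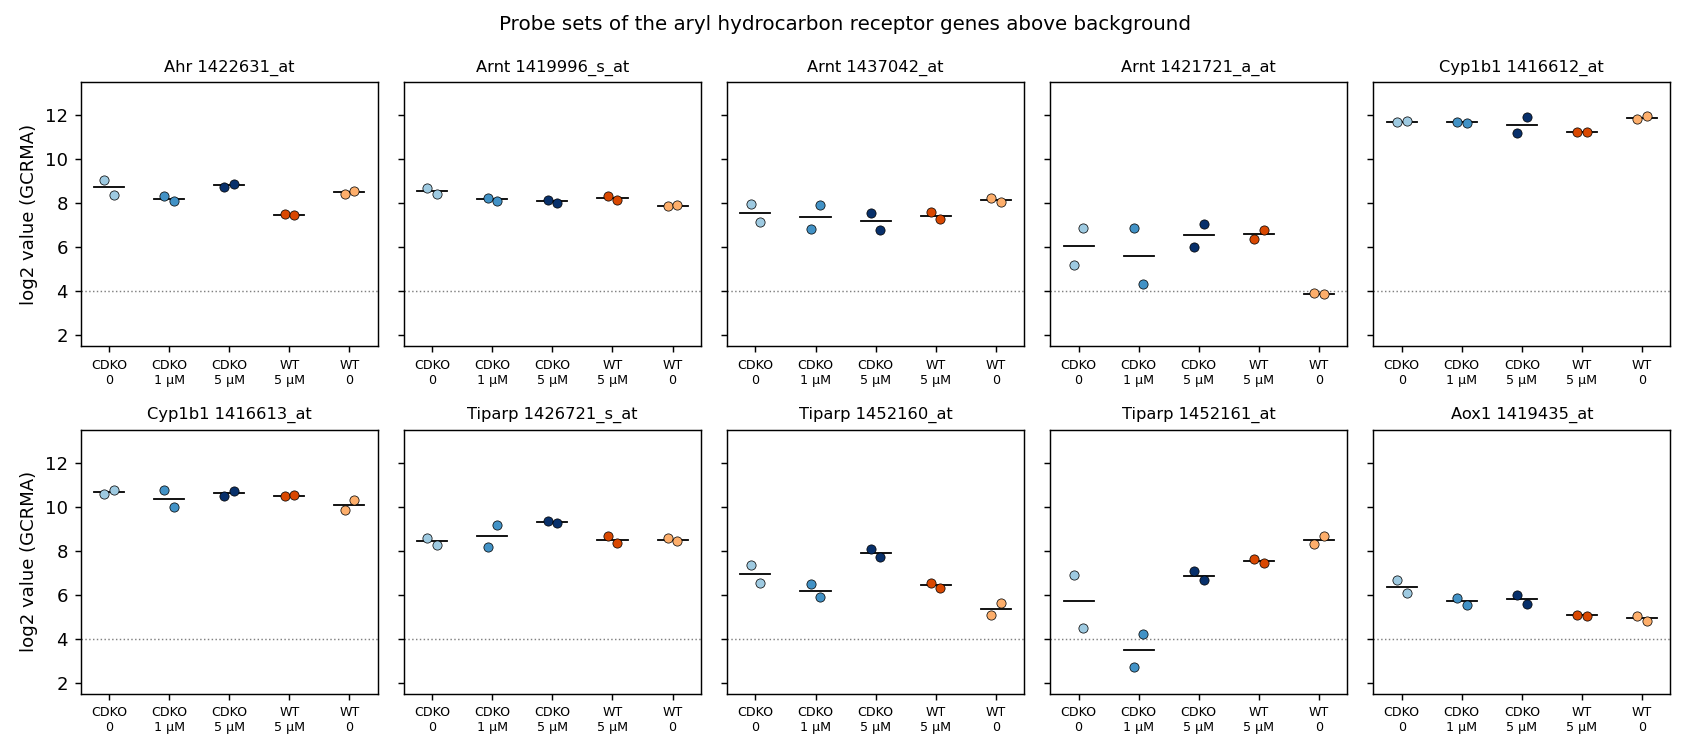
Log2 values of the 10 tested probe sets by group, with 1 point per array, a bar at the group mean and a dotted line at the minimum of 4. Ahr is lowest in WT at 5 µM, 2 of the 3 Tiparp probe sets are highest in CDKO at 5 µM, and Aox1 is lowest in the 2 WT groups.

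Cyp1b1, the cytochrome P450 of the family that fibroblasts and other mesenchymal cells are known to express, was well above the minimum in all groups. On 1416612_at it read 11.69 and 11.74 in untreated CDKO, 11.70 and 11.67 at 1 µM, 11.19 and 11.91 at 5 µM, 11.23 and 11.22 in treated WT, and 11.83 and 11.96 in untreated WT. The CDKO groups overlapped, and treated WT lay below untreated WT. On 1416613_at it read 10.61 and 10.77 in untreated CDKO, 10.76 and 9.98 at 1 µM, 10.52 and 10.72 at 5 µM, 10.49 and 10.54 in treated WT, and 9.88 and 10.34 in untreated WT, where treated WT lay above untreated WT. Another probe set, 1432081_at, was at background at 1.97 to 2.01.

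The Cyp1b1 difference of CDKO cells at 5 µM against untreated was -0.16 (95% interval -0.76 to 0.43, adjusted p = 0.963) on 1416612_at and -0.07 (-0.76 to 0.63, adjusted p = 0.994) on 1416613_at. Leaving out CDKO 5 µM replicate 1 turned these to 0.19 and 0.04, so no direction can be given. In WT cells the probe sets opposed each other, at -0.67 ± 0.25 (adjusted p = 0.128) on 1416612_at and 0.40 ± 0.30 (adjusted p = 0.407) on 1416613_at. With the 18S level as a covariate the second was -0.34.

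Aox1, an aldehyde oxidase whose induction by dioxin is known from mouse liver, read 6.67 and 6.07 in untreated CDKO, 5.88 and 5.55 at 1 µM, 6.00 and 5.60 at 5 µM, 5.08 and 5.05 in treated WT, and 5.04 and 4.83 in untreated WT. All 6 CDKO arrays lay above all 4 WT arrays. Untreated CDKO was highest, the treated CDKO groups overlapped each other, and the WT groups lay close together at 4.83 to 5.08.

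Untreated CDKO exceeded untreated WT on Aox1 by 1.43 ± 0.27, a 2.70-fold difference (adjusted p = 0.0268), and by 1.73 within the higher spike-in class. At 5 µM the difference between the lines was 0.73 ± 0.27 (adjusted p = 0.251), and 0.93 in the higher class. In CDKO cells the change with OHT was -0.65 ± 0.27 at 1 µM (adjusted p = 0.887) and -0.56 ± 0.27 at 5 µM (adjusted p = 0.643), and the response to 5 µM in CDKO minus that in WT was -0.70 ± 0.38 (adjusted p = 0.501). The call between the untreated lines was kept in 5 of 10 fits that left out 1 array and lost without CDKO untreated replicate 1 or any WT array, with differences of 1.13 to 1.73. With the 18S level as a covariate it was 1.08 (adjusted p = 0.265), and over all alternatives the adjusted p ran from 0.0104 to 0.265. The raised Gapdh difference and epithelial and muscle markers set untreated WT apart from untreated CDKO in the same comparison, and their part in the result was not tested.

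Counted over the 10 tested probe sets, 2 passed in untreated CDKO against untreated WT, both higher (Aox1 and Tiparp 1452160_at), where 6.58% of all 20681 tested probe sets passed and 2.30% passed as higher. In the 7 other comparisons 0 of 10 passed with limma. The shares of all probe sets were 0.145% for CDKO at 5 µM against untreated, 0% for 1 µM against untreated, 0.169% for 5 µM against 1 µM, 9.23% for WT at 5 µM against untreated, 1.80% for CDKO against WT at 5 µM, 0.348% for the difference of the responses and 4.08% for treated CDKO against the 3 control groups. At an unadjusted p under 0.05 the members counted 3, 2, 3, 4, 4, 2 and 2 of 10 in the same order, beside 8.89%, 3.43%, 12.9%, 30.6%, 15.6%, 12.5% and 19% of all probe sets. In untreated CDKO against untreated WT they counted 5 of 10, beside 25%. With a share of 0.145% over the whole array, 0 of 10 members is what that background gives, so that count says little about OHT and the receptor genes in CDKO cells.

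The median change of the 10 probe sets was 0.01 for CDKO at 5 µM against untreated, beside 0.00 for all tested probe sets, and 0.07 for WT at 5 µM against untreated, beside -0.06. For untreated CDKO against untreated WT it was 0.40, beside 0.00. In WT cells the pooled spread was larger than that of the WT arrays themselves. With the 4 WT arrays alone 7 of the 10 member probe sets passed, and so did 54.7% of all probe sets.

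**Figure D4:**
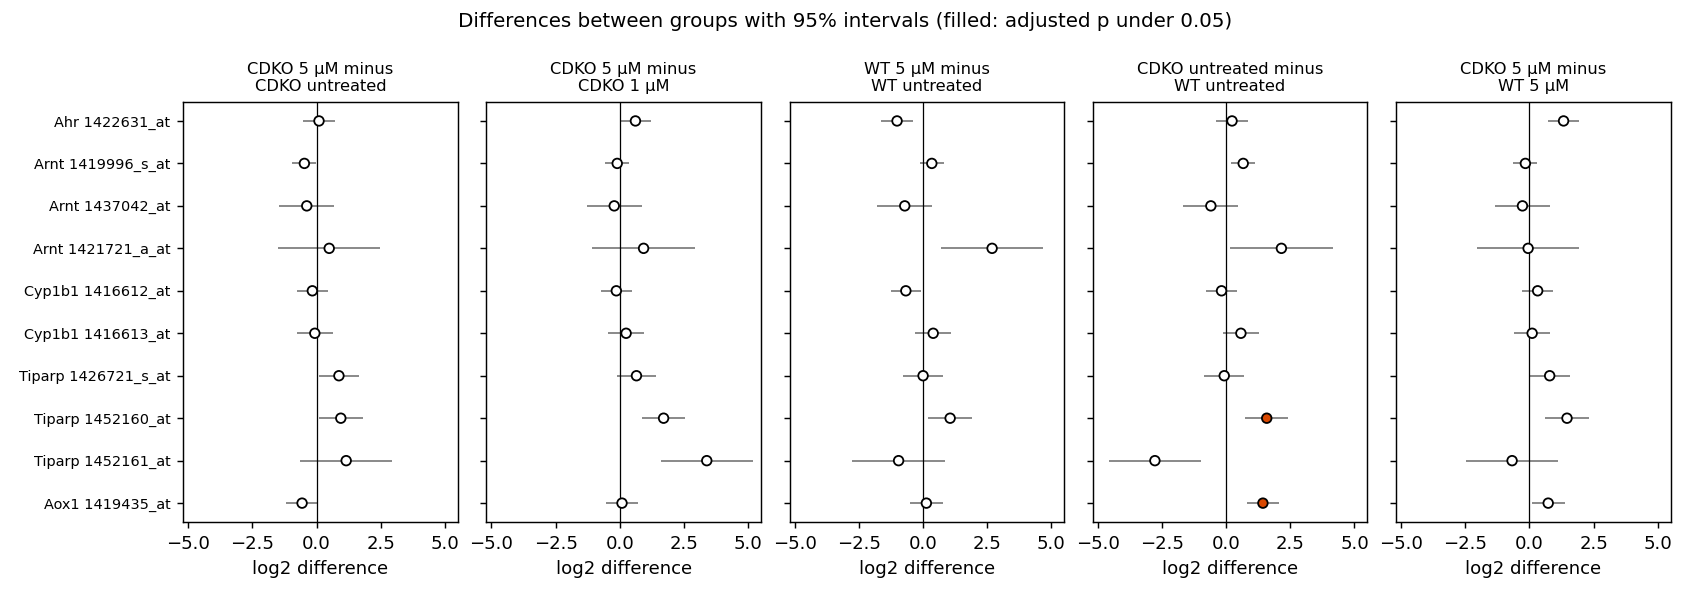
Log2 differences of the 10 tested probe sets in 5 of the comparisons, with 95% intervals from the pooled fit. Filled points passed an adjusted p of 0.05, which holds for Aox1 and Tiparp 1452160_at in untreated CDKO against untreated WT.

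Beyond the 8 members, 13 further genes of the receptor's battery were measured and 7 tested. Nqo1, a quinone reductase with both receptor and antioxidant elements, read 8.93 and 8.74 in untreated CDKO, 8.27 and 8.50 at 1 µM, 11.76 and 11.01 at 5 µM, 8.48 and 8.76 in treated WT, and 6.69 and 7.07 in untreated WT. Both CDKO arrays at 5 µM were above all others and both untreated WT arrays below. Nqo1 is also a target of the antioxidant factor encoded by Nfe2l2, so its level is not specific to the receptor.

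Nqo1 passed in 6 of the 8 comparisons, higher in each. Besides the rise in CDKO cells at 5 µM over untreated, of 2.55 ± 0.30 (adjusted p = 0.0378), it was 2.998 ± 0.30 higher at 5 µM than at 1 µM in CDKO cells (adjusted p = 0.0220) and 1.75 ± 0.30 higher in treated than in untreated WT (adjusted p = 0.0180). At 1 µM the change was -0.45 ± 0.30 (adjusted p = 0.887), and the response to 5 µM in CDKO minus that in WT was 0.80 ± 0.42 (adjusted p = 0.482). The dose step was kept in 4 of 10 fits without 1 array, and the CDKO rise in 1 of 10, that without CDKO 5 µM replicate 2. Of 8 other alternatives the dose step was kept in 4 and the CDKO rise in 3. With the compared groups alone both calls were lost, and 0% of all probe sets passed in either comparison. Of the other 6 tested battery genes 0 passed in these 2 comparisons. The share of all 10623 tested genes that passed was 0.141% for CDKO at 5 µM against untreated and 0.160% for 5 µM against 1 µM.

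In WT cells on OHT, 3 of the 7 rose and 1 fell, where 3.45% of all genes rose, 4.73% fell and 8.18% passed in all. Serpinb2, a plasminogen activator inhibitor, rose by 3.40 ± 0.63 (adjusted p = 0.0229), with 6.27 and 6.32 in treated WT, against 2.83 and 2.96 in untreated WT. Xdh, xanthine dehydrogenase, rose by 2.74 ± 0.50 (adjusted p = 0.0220), with 8.04 and 8.18 in treated against 5.40 and 5.34 in untreated WT. Slc7a5, a transporter of large amino acids, fell by 2.20 on the log2 scale (adjusted p = 0.0495). Serpinb2 was below the minimum in untreated WT, so its change is measured against background. In CDKO cells at 5 µM against untreated, where 0.141% of all genes passed, Serpinb2, Xdh and Slc7a5 moved the same way without passing. The differences were 3.32 ± 0.63, 1.04 ± 0.50 and -1.30 ± 0.55 (limma adjusted p = 0.135, 0.644 and 0.552). The Serpinb2 mean in untreated CDKO, 3.66, was also below the minimum. Macrophage and leukocyte markers also differed between the WT groups, with medians of 8.99 and 9.01 in treated against 8.50 and 8.64 in untreated arrays. Single markers went both ways, as Cd68 had means of 9.67 and 7.40 and Csf1r of 8.84 and 10.56 in treated and untreated WT. The part of these markers in the changes was not tested. In WT cells the calls of Serpinb2, Xdh, Slc7a5 and Nqo1 were each lost with the 18S level as a covariate. That fit passed 0.0677% of all probe sets, beside 9.23% in the main fit. Each was also lost without any 1 of the 4 WT arrays, where far fewer probe sets passed over the whole array. These losses are therefore not particular to these genes. The call of Slc7a5 was also lost in fits without a CDKO array, and was kept in 4 of 10 fits without 1 array, against 6 of 10 for each of Serpinb2, Xdh and Nqo1. The Gapdh difference and the epithelial and muscle markers set untreated WT apart in this comparison, and their part was not tested.

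In treated CDKO cells against the 3 control groups, Nqo1 and the growth factor Ereg were higher by 1.77 ± 0.19 and 0.83 ± 0.14 (adjusted p = 0.00610 and 0.0236), and Xdh was lower, at -1.66 ± 0.32 (adjusted p = 0.0371). In that comparison 2.43% of all genes passed, and with 1 array left out the calls were kept in 10, 5 and 3 of 10 fits for Nqo1, Ereg and Xdh. Ereg read 9.62 and 9.64 in CDKO cells at 1 µM and 10.74 and 10.64 at 5 µM, against 8.85 to 9.71 in the 6 control arrays, so only the 5 µM arrays lay clear of the controls. Xdh read 3.36 and 2.73 at 1 µM, below the minimum, and 5.15 and 6.40 at 5 µM, against 4.17 and 5.31 in untreated CDKO, 8.04 and 8.18 in treated WT, and 5.40 and 5.34 in untreated WT. Its lower value in treated CDKO thus held for 1 µM against all control arrays, whereas at 5 µM it was 1.04 ± 0.50 above untreated CDKO (adjusted p = 0.644). The median of the 7 genes was 1.04 for CDKO at 5 µM against untreated, 0.74 for WT at 5 µM against untreated and 0.58 for untreated CDKO against untreated WT, beside all-gene medians of -0.01, -0.09 and -0.05. For CDKO at 1 µM against untreated it was -0.24, beside 0.00, and for the difference of the responses 0.01, beside 0.09. It was 1.06 for 5 µM against 1 µM, 0.55 for CDKO against WT at 5 µM and 0.32 for treated CDKO against the 3 control groups. The all-gene medians there were -0.02, 0.04 and 0.02. The 6 other measured genes, among them Cyp1a2 and the tryptophan dioxygenases Ido1 and Ido2, were below the minimum.

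**Figure D5:**
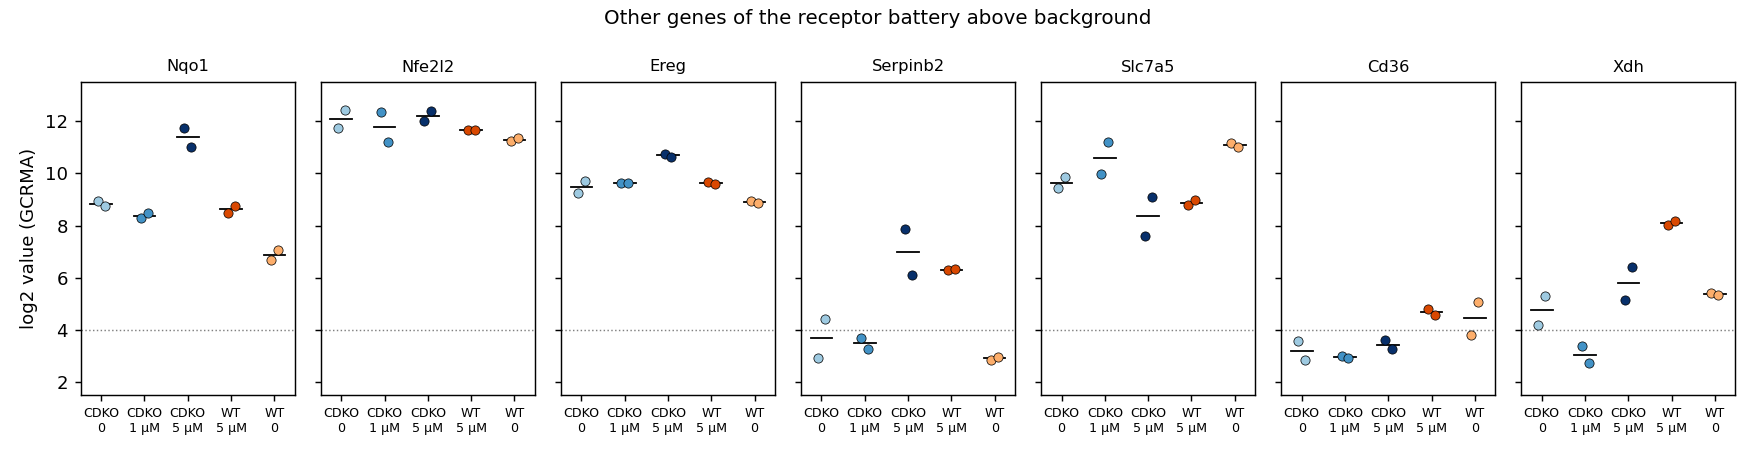
Log2 values of the 7 tested battery genes that are not members, by group, with 1 point per array, a bar at the group mean and a dotted line at the minimum of 4. On average Nqo1 and Serpinb2 were highest in CDKO at 5 µM, while Xdh was highest in WT at 5 µM.

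Proteins that work with the receptor were read from lists of its chaperones, coregulators and relatives. Of the chaperone complex only Hsp90aa1 was measured by a probe set with a single symbol, and it passed in none of the 8 comparisons with limma, where 0% to 8.18% of all genes passed. Of 8 tested coregulators 0 passed in the comparisons other than WT at 5 µM against untreated, where 0% to 4.54% of all genes passed. In WT cells on OHT 3 fell, where 4.73% of all genes fell and 8.18% passed in all. The list median there was -1.19, beside -0.09 for all genes. Crebbp, a histone acetyltransferase, differed by -1.28 ± 0.18 (adjusted p = 0.0101), with 9.16 and 9.23 in treated WT, 9.56 to 9.84 in the CDKO arrays, and 10.46 and 10.50 in untreated WT. Its relative Ep300 differed by -1.26 ± 0.28 (adjusted p = 0.0370) and the corepressor Nrip1 by -1.13 ± 0.23 (adjusted p = 0.0296). Each of the 3 calls was lost with the 18S level as a covariate. That fit passed 0.0677% of all probe sets, beside 9.23% in the main fit. Each was also lost without any 1 of the 4 WT arrays, where far fewer probe sets passed over the whole array. Such losses are therefore not particular to these genes. The Gapdh difference and the epithelial and muscle markers set untreated WT apart in this comparison, and their part was not tested.

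Of 13 measured bHLH-PAS relatives, 8 were tested. Arntl2, a partner of the clock protein Clock, differed between untreated CDKO and untreated WT by 1.60 ± 0.25 (adjusted p = 0.0137), where 4.54% of all genes passed and 1.94% were higher. It read 6.00 and 5.99 in untreated CDKO, against 4.38 and 4.40 in untreated WT, and lost its call without CDKO untreated replicate 2, without either untreated WT array and with the 18S covariate. The other 7, with the hypoxia factors Hif1a and Epas1 that also pair with Arnt, did not pass there, and 0 of 8 passed in the 7 other comparisons. Of all genes 8.18% passed for WT at 5 µM against untreated, 2.43% for treated CDKO against the 3 control groups, 1.45% for CDKO against WT at 5 µM and 0.301% for the difference of the responses. Within CDKO cells 0.141% passed at 5 µM against untreated, 0% at 1 µM against untreated and 0.160% for 5 µM against 1 µM. Of 13 measured enzymes of tryptophan and kynurenine metabolism only Kyat1 and Kyat3 were tested, and 0 passed in any comparison, where 0% to 8.18% of all genes passed. Over so few genes such a count says little.

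The genes most like each member over the 10 arrays were found by Pearson correlation among 4043 tested genes with an SD of at least 0.5. Ahr was most like Plekhg1, Slc40a1 and Rnf2 (r = 0.913, 0.911 and 0.906), and Arnt 1419996_s_at was most like Fas, Vwa5a and Oasl2 (r = 0.920, 0.900 and 0.886). Cyp1b1 1416612_at was most like Resf1, Dnmt3a and Cntrl (r = 0.959, 0.920 and 0.916), and Tiparp 1426721_s_at was most like Mgat5, Erc2 and Zcchc2 (r = 0.947, 0.939 and 0.909). Aox1 was most like Dmac2l, Trim34a and Dtd1 (r = 0.949, 0.941 and 0.934). The 10 points share 5 groups and the array differences given above, so these are descriptions of pattern over few arrays.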

How the data were processed

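Total RNA, taken with Trizol, was read on 10 Affymetrix arrays. The authors deposited log2 values, with 1 value for each probe set on each array, and the submitters' processing notes name GCRMA without a version. The log2 scale was read from the range of the values, 1.09 to 16.0. The chip definition and any filter by the authors were not known. With 2 arrays a group, the small number of arrays limits the precision.

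Arrays were grouped by their titles. Probe sets were named from the platform annotation, which gave 34958 a single symbol, 932 several and 9211 none, and those with several were not named. Control probe sets, 64 in all, were left out. The model was limma 3.58.1 (R 4.3.3; lmFit, eBayes), with 5 group means and 5 residual degrees of freedom, over the 20681 probe sets whose highest group mean reached 4. Calls were made at a Benjamini-Hochberg adjusted p under 0.05 over all of them, and tests were two-sided. For genes outside the members, the brightest probe set on average stood for the gene, and 10623 genes were tested. The fit was tested on simulated data. From each list up to 3 called genes with the largest change per comparison are named, with Nqo1, and the 3 genes with the highest correlation for each expressed member. The members, lists and alternatives were chosen with earlier results of these data known. Replicate numbers were not used as pairs, since the replicate difference of untreated CDKO correlated at -0.453 with that of 1 µM and at 0.431 with that of 5 µM. The alternatives were no minimum or a minimum of 6, quantile normalization, array weights, a block for the replicate number or the spike-in class, fits of the compared groups alone and each array left out in turn. The 18S level as a covariate was chosen after seeing the data.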

Additional observations from a re-analysis of the deposited data

How the results depend on the processing

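The number of member probe sets that passed moved with the fit. In WT cells at 5 µM against untreated, where 0 of 10 passed, 8 passed with array weights (60.2% of all probe sets), 7 with the compared groups alone (54.7%) and 1, Ahr, blocked by spike-in class (14.4%), and 0 to 2 with 1 array left out (10.5% of all probe sets where 1 passed and 21.8% where 2 did). In untreated CDKO against untreated WT, where 2 passed, 0 passed with no minimum (2.30% of all probe sets), with the compared groups alone (2.36% of all probe sets) and with the 18S covariate (0.643%), 1 passed with a minimum of 6 (5.49%) and 1 with the replicate block (4.69%), Aox1 each time, and 0 to 3 with 1 array left out (1.17% to 15.5%). With array weights 2 passed (8.98%), Aox1 and, as lower, Tiparp 1452161_at. With the replicate block Tiparp 1452160_at missed at an adjusted p of 0.0571, and the block changed no other member call. The replicate numbers mark no stated shared culture. In CDKO against WT at 5 µM, where 0 passed, 1 passed with array weights (Ahr, 2.05% of all probe sets) and 2 blocked by spike-in class (Ahr and Tiparp 1452160_at, 4.56%), and 0 to 1 with 1 array left out (Ahr, 1.87%). With 1 array left out 0 to 1 passed in 5 µM against 1 µM in CDKO cells (9.19% where 1 passed) and in treated CDKO against the 3 control groups, where it was Tiparp 1452161_at without CDKO untreated replicate 2 (7.04%) or CDKO 1 µM replicate 2 (5.82%). The last comparison uses all groups and had no separate fit with the compared groups alone. The cause of these moves was not tested.

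Of the 45 member changes printed with a value, out of 80 possible, 2 had passed and kept their direction in all alternatives run. Among the 43 others directions turned in 16 fits with 1 array left out and in 8 other fits. For CDKO at 5 µM against untreated, Ahr was -0.074 and Arnt 1421721_a_at -0.20 with the 18S covariate. With 1 array left out Ahr ran from -0.24 (without CDKO untreated replicate 2) to 0.43, and Tiparp 1452161_at from -0.042 (without the same array) to 2.35. Cyp1b1 1416612_at ran from -0.52 to 0.19 and 1416613_at from -0.17 to 0.036, in both cases highest without CDKO 5 µM replicate 1, and the second was also above 0, at 0.014, without CDKO untreated replicate 2. Arnt 1421721_a_at ran from -0.34 to 1.32 and 1437042_at from -0.80 to 0.037, both turned without CDKO untreated replicate 1, and without CDKO 5 µM replicate 2 at -0.034 and 0.020. For WT at 5 µM against untreated, the 18S covariate gave 0.075 for Arnt 1437042_at and -0.34 for Cyp1b1 1416613_at, and Tiparp 1426721_s_at ran from -0.15 to 0.16 with 1 array left out. For untreated CDKO against untreated WT, Tiparp 1426721_s_at was 0.021 blocked by spike-in class and 0.55 with the 18S covariate, and ran from -0.23 to 0.079 with 1 array left out. For CDKO against WT at 5 µM, Tiparp 1452161_at was 0.026 blocked by spike-in class. For the response in CDKO minus that in WT, Tiparp 1452160_at was 0.44 with the 18S covariate and ran from -0.53 to 0.30 with 1 array left out. A fit that leaves a group 1 array takes that array to vary like the other groups. The signal over background of Cyp1a1, Ahrr and Aldh3a1 is too low for any fit to give a change.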

Other observations

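Relatives of Tiparp and of the aldehyde enzymes among the targets also differed between groups. Of 12 measured PARP relatives 10 were tested, and in WT cells on OHT 2 rose and 1 fell, where 3.45% of all genes rose and 4.73% fell. Parp9, which is induced by interferon, read 8.02 and 8.32 in treated WT, against 6.87 and 6.39 in untreated WT, a difference of 1.54 ± 0.32 (limma adjusted p = 0.0323). Parp3, a DNA repair enzyme, rose by 0.90 ± 0.21 (adjusted p = 0.0399), and Parp2, which marks DNA breaks, differed by -1.10 ± 0.24 (adjusted p = 0.0343). Each of the 3 lost its call with the 18S level as a covariate. That fit passed 0.0677% of all probe sets, beside 9.23% in the main fit. Each was also lost without any 1 of the WT arrays, where far fewer probe sets passed over the whole array. Such losses are therefore not particular to these genes. The Gapdh difference and the epithelial and muscle markers set untreated WT apart in this comparison, and their part was not tested. The list median was -0.07, beside -0.09 for all genes.

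Of 10 measured aldehyde dehydrogenase and aldehyde oxidase relatives 7 were tested. Aldh2, the mitochondrial enzyme that clears acetaldehyde, differed between untreated CDKO and untreated WT by 1.18 ± 0.24 (adjusted p = 0.0339), in the same comparison as Aox1, and kept its call in 4 of 10 fits without 1 array. Aldh1a3, which makes retinoic acid, was higher in treated CDKO cells than in the 3 control groups by 1.94 ± 0.37 (adjusted p = 0.0352), and kept its call in 3 of 10 such fits. It read 4.09 and 6.15 in CDKO cells at 1 µM and 5.38 and 4.97 at 5 µM, against 4.14 and 4.04 in untreated CDKO, 2.83 and 2.85 in treated WT, and 2.61 and 2.76 in untreated WT, so the WT groups were below the minimum. The CDKO 1 µM array with 6.15 is the 1 with the high 18S control. Aox3 and Aox4, the neighbours of Aox1 in the aldehyde oxidase family, were below the minimum at means of 2.21 and 2.16.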
